A study of Mus musculus with 4 samples.

Results

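Hematopoietic cells of the mouse brain were compared between day 3 of photothrombotic injury (PTI, D3) and day 3 of sham surgery (S3). In PTI, light activates the dye Rose Bengal in the blood, so that vessels under the illuminated skull clot. A cell of either brain library was used if its detected genes numbered above 1000 and below 6000 and if mitochondrial genes held no more than 7% of its unique molecular identifiers (UMIs). These were 3748 of 4734 barcodes in S3 and 4601 of 5925 in D3, together 8349 of the 14586 cells that passed the same filter in the 4 libraries of the series. The mice were adult C57BL/6J, by the methods 8 weeks of age or older, in both groups, and the labels name no transgene or deletion. Cells were freed with collagenase, dispase and DNase, red cells were lysed, and live single CD45+ cells were sorted and run on the 10X Chromium platform. The labels call the D3 library INJ and the other CT, which was taken as S3. Each group is 1 library, and the number of mice pooled in it is not given in the sources used here. Differences were therefore set against counting error alone, no test was made, and the spread between mice is unknown.

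Border tissues of the central nervous system and its blood vessels hold lymphocytes, granulocytes, monocytes and dendritic cells, while the parenchyma itself holds mainly microglia, the resident macrophages. After ischemic damage, neutrophils and Ly6C hi monocytes enter from the blood, monocytes turn into macrophages that clear debris, and microglia lose part of their resting gene program. A sorted library gives shares of cells and not numbers per brain. For a class with a lower share, loss of its cells and dilution by another class cannot be told apart. Likewise, in summed UMIs, fewer cells of a type and less RNA per cell cannot be told apart unless the classes are compared one by one.

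The sort was checked on *Ptprc*, the gene of CD45. It had at least 1 UMI in 94.5% of the S3 cells and in 93.4% of the D3 cells, although 1 label field of the brain libraries carries both signs for CD45. Summed markers of other cells were low. Fibroblast genes gave 13.5 CPM (UMIs scaled to one common total in each library) in S3 and 0.871 CPM in D3, neuron genes gave 22.7 and 5.07 CPM, and endothelial genes gave 118 and 57.0 CPM. Where a level is given within a class of cells, the UMIs of that class in the library are scaled in place of those of the whole library. Erythroid genes gave 2.77 and 6.28 CPM, astrocyte genes 26.1 and 23.5 CPM and oligodendrocyte genes 71.2 and 45.1 CPM. Each list has 5 genes, and *Alas2* (erythroid), *Mog* (oligodendrocyte) and *Gp1bb* (platelet) were at 0 or not listed in both libraries and *Syt1* (neuron) in S3. Platelet genes gave 281 and 871 CPM, but that list holds *Pf4*, which macrophages also express and which alone gave 272 and 865 CPM. The part of such cells in the results was not tested. Kept cells held 40131578 UMIs in S3 and 76898277 in D3. The median cell had 8435.5 UMIs and 2445.5 genes in S3, and 14641 UMIs and 3301 genes in D3. The libraries shared 7 barcodes, of which 5 were kept in both.

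Each cell was given to the class whose markers it carried most strongly among 19 marker lists. A list had to have at least 3 markers with a UMI and a score of at least 0.2, where 1 is the level of strongly positive cells in every marker. The names below mean "like" cells of that kind, by these markers only. The genes *Cd3e*, *Cd79a* and *P2ry12* are markers of the gates themselves, so their values describe the classes and are no independent check. *Cd3e*, a chain of the T cell receptor complex, had a UMI in 95.4% of the T cells and 4.24% of the other cells of S3, and in 89.6% and 2.81% in D3. *Cd79a*, a chain of the B cell receptor complex, had a UMI in 100% and 6.41% in S3 and in 98.7% and 1.02% in D3. *P2ry12*, a purinergic receptor of microglia, had one in 99.6% of microglia and 14.0% of other cells in S3, and in 98.6% and 24.9% in D3.

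The balance of the brain library turned from lymphocytes to macrophages. Lymphoid cells made up 45.4% of S3 cells (95% exact binomial interval 43.8 to 47.0, 1702 cells) and 9.37% of D3 cells (8.54 to 10.2, 431 cells), with a log2 ratio of the shares of -2.28 (-2.42 to -2.14). Macrophages made up 23.7% of S3 cells (22.3 to 25.1, 888 cells) and 56.1% of D3 cells (54.7 to 57.6, 2582 cells), with a log2 ratio of 1.24 (1.15 to 1.33). Monocytes went from 10.4% (9.45 to 11.4, 390 cells) to 14.9% (13.9 to 16.0, 687 cells), with a log2 ratio of 0.52 (0.35 to 0.69). Neutrophils went from 13.5% (12.4 to 14.6, 506 cells) to 10.7% (9.81 to 11.6, 492 cells), with a log2 ratio of -0.34 (-0.50 to -0.17). Dendritic cells went from 5.66% (4.94 to 6.44, 212 cells) to 6.998% (6.28 to 7.77, 322 cells), with a log2 ratio of 0.31 (0.06 to 0.55). No class was named for 1.28% of S3 cells and 1.89% of D3 cells. The intervals of the S3 and D3 shares overlapped for dendritic cells and for no other of the 5 broad classes.

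**Figure D1:**
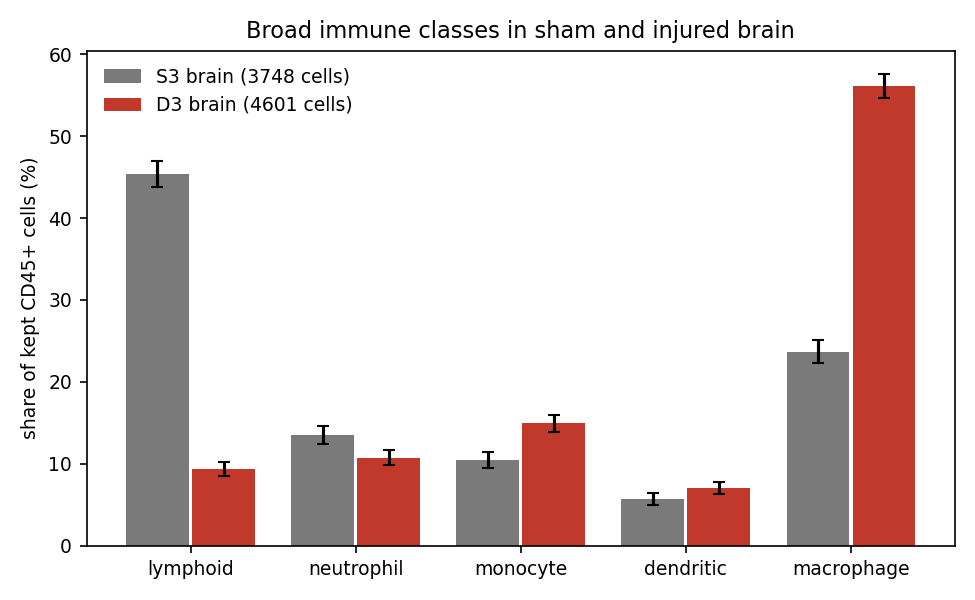
Shares of the 5 broad marker classes among kept CD45+ cells of the S3 brain (grey) and the D3 brain (red), in percent. Bars start at 0, error bars are exact 95% binomial intervals and cover counting error only. Lymphoid cells stand at 45.4% and 9.37%, macrophages at 23.7% and 56.1%.

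Because the macrophage share was so much larger in D3, every other class was also counted among the cells outside the macrophage class, 2860 in S3 and 2019 in D3. On this base lymphoid cells were 59.5% and then 21.3%, with a log2 ratio of -1.48 (-1.61 to -1.35). Neutrophils turned from lower to higher, from 17.7% to 24.4%, with a log2 ratio of 0.46 (0.30 to 0.62). Monocytes went from 13.6% to 34.0%, with a log2 ratio of 1.32 (1.16 to 1.48), and dendritic cells from 7.41% to 15.9%, with a log2 ratio of 1.11 (0.87 to 1.34). The direction for neutrophils thus depended on the base, while that for lymphoid cells, monocytes and dendritic cells did not.

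**Figure D2:**
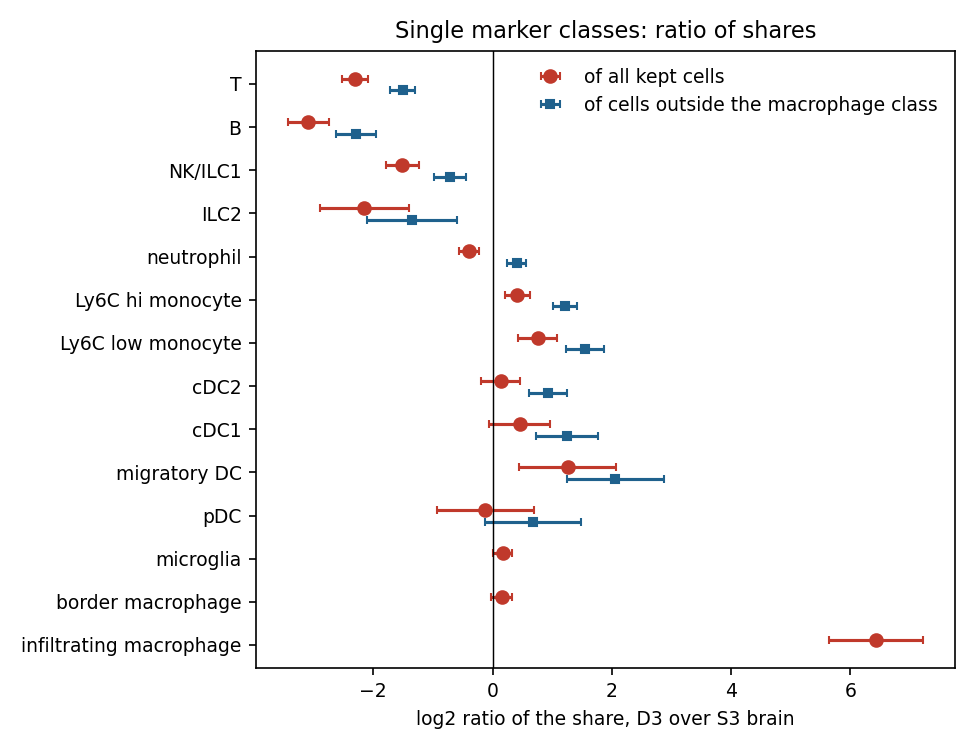
Log2 ratio of the share of each single marker class with at least 10 cells in both libraries, D3 over S3, among all kept cells (red) and among cells outside the macrophage class (blue). Bars are 95% intervals for counting error. B cells lie at -3.09, infiltrating macrophages at 6.43, and neutrophils lie on opposite sides of 0 on the 2 bases.

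Cells near the border of a gate were more common in D3. Cells whose score led that of the best list of another broad class by under 0.05 made up 2.57% of neutrophils in S3 and 13.8% in D3, 3.33% and 11.8% of monocytes, 8.49% and 11.2% of dendritic cells, 1.23% and 2.55% of lymphoid cells, and 2.82% and 3.02% of macrophages. Of the monocytes near the border in both libraries, 56 had macrophages as the next class and 25 had dendritic cells. With a stricter gate, the log2 ratio of the monocyte share was 0.30 (0.12 to 0.48) and that of the neutrophil share -0.55 (-0.74 to -0.37). With clusters in place of gates, the dendritic share had a log2 ratio of 0.83 (0.58 to 1.07). Under clusters and the stricter gate, log2 ratios were -2.30 and -2.31 for lymphoid cells and 1.12 and 1.26 for macrophages. Gate and cluster gave 89.0% of the 8349 cells the same broad class. One cluster of 39 S3 and 44 D3 cells that scored as microglia was led by vessel genes such as *Cldn5* and *Flt1* and by no microglia marker. A cluster of 95 S3 and 116 D3 cells counted as Ly6C hi monocytes was led by cell cycle genes such as *Mki67*. Another, of 193 S3 and 152 D3 cells, counted as border macrophages, was led by *Axl* and *Lilra5*. Neither had a marker of its class among its leading genes. Gated monocytes also carried macrophage genes. The median monocyte had 81.6 UMIs of monocyte markers and 55.5 of macrophage markers per 10000 UMIs in S3, and 70.8 and 81.4 in D3.

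Macrophages weighed more in the RNA than in the cells. They held 29.4% of the UMIs of S3 and 67.5% of those of D3. Lymphoid cells held 32.9% and 3.84%. Macrophages had a median of 10885.5 UMIs in S3 and 19134.5 in D3, whereas lymphoid cells had 6412.5 and 5441. Thinning every cell to 2000 UMIs before gating gave lymphoid shares of 43.9% and 8.90% and macrophage shares of 24.3% and 57.0%, with 1 S3 cell and 5 D3 cells left out as too shallow. Each of these 4 values lies within the interval of the unthinned share. Thinning took dendritic cells to 3.096% and 3.76% and D3 monocytes to 13.03%, below their unthinned intervals, while the log2 ratios were 0.28 (-0.05 to 0.62) and 0.44 (0.26 to 0.61). The filter on cells took unlike classes from the libraries. Of the barcodes removed for over 7% mitochondrial UMIs, 46.0% in S3 and 11.5% in D3 were lymphoid, and 10.3% and 32.3% were macrophages.

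**Figure D3:**
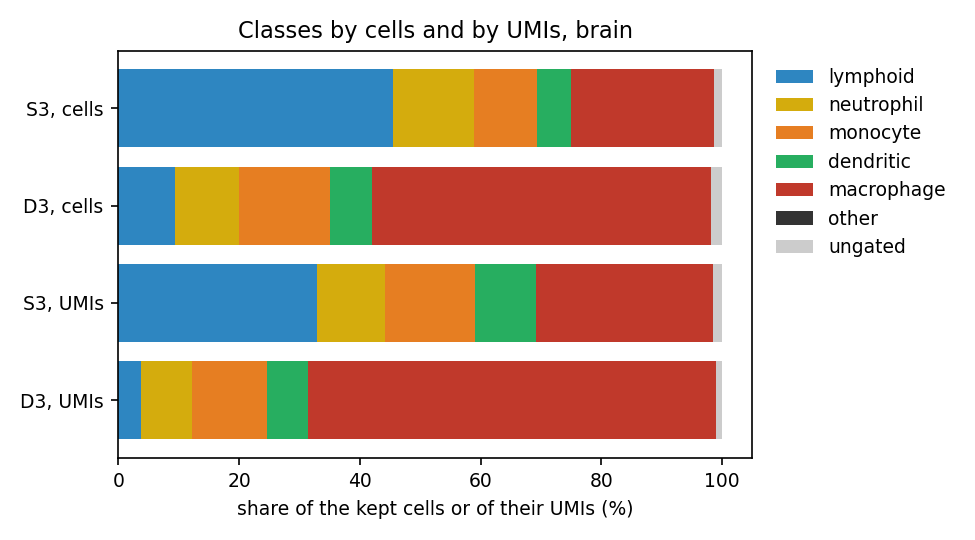
The 5 broad classes as shares of kept cells (upper 2 bars) and of the UMIs of those cells (lower 2 bars) in the S3 and D3 brain, in percent. Macrophages (red) fill 56.1% of the D3 cells and 67.5% of the D3 UMIs.

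Among lymphoid cells, B cells had the lowest ratio. B cells went from 13.9% of all cells (520 cells) to 1.63% (75 cells), with a log2 ratio of -3.09 (-3.43 to -2.75). T cells went from 20.8% (778 cells) to 4.19% (193 cells), with a log2 ratio of -2.31 (-2.53 to -2.09). Group 2 innate lymphoid cells (ILC2), which make type 2 cytokines at barriers, went from 1.73% (65 cells) to 0.391% (18 cells), with a log2 ratio of -2.15 (-2.90 to -1.40). Natural killer (NK) cells and their relatives ILC1 went from 8.83% (331 cells) to 3.09% (142 cells), with a log2 ratio of -1.52 (-1.79 to -1.24). The make-up of the lymphoid cells shifted as well. T cells were 45.7% of them in S3 and 44.8% in D3, B cells were 30.6% and 17.4%, and NK/ILC1 cells were 19.4% and 32.9%. Plasma cells numbered 8 in S3 and 3 in D3, too few for a ratio.

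T cells were split by the lineage genes they carried. Cells with *Cd8a* or *Cd8b1* UMIs alone, the cytotoxic lineage, were 25.1% of T cells in S3 (22.1 to 28.3) and 25.4% in D3 (19.4 to 32.1). Cells with genes of the gamma-delta receptor alone were 24.7% (21.7 to 27.9) and 26.4% (20.4 to 33.2). Cells with *Cd4* alone, the helper lineage, were 22.0% (19.1 to 25.1) and 15.0% (10.3 to 20.9). After thinning to 2000 UMIs the *Cd4* group was 9.38% (7.43 to 11.7) and 7.25% (4.02 to 11.9), so a difference was not detectable at that depth. None of the subset genes had a UMI in 20.2% of T cells in S3 and 30.6% in D3.

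T cells were spread over clusters in different proportions in each group. A cluster led by *Lef1* and *Tcf7* held 191 S3 and 17 D3 cells, one led by *Cd8b1* and *Dapl1* held 143 and 14, and one led by *Trac* and *Cd28* held 230 and 91. Levels within the T cell class therefore mix these clusters. *Lef1*, a transcription factor of naive T cells, stood at 262.6 CPM in S3 and 127.8 CPM in D3, with a log2 ratio of -1.04 (-1.27 to -0.82). *Ccr7*, a receptor for lymph node homing, stood at 197.3 and 101.5 CPM, with a log2 ratio of -0.96 (-1.22 to -0.71). *Gzmb*, a protease of cytotoxic granules, stood at 139.8 and 338.0 CPM, with a log2 ratio of 1.27 (1.11 to 1.44), and *Ifng*, which encodes interferon-gamma, at 220.3 and 352.9 CPM, with a log2 ratio of 0.68 (0.53 to 0.83). *Tcf7* and *Il7r*, also genes of naive cells, had log2 ratios of -0.49 and -0.36. These genes were chosen after the class shares were known, and of the 6 only *Lef1* and *Gzmb* passed 2-fold. Of 2012 genes with at least 500 UMIs in T cells, 1.99% passed 2-fold in either direction. The leading higher genes there were abundant in myeloid cells, among them *Ifitm3* at 59.5 and 376.3 CPM and *H2-Aa* at 275.7 and 962.8 CPM.

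NK/ILC1 cells fell mainly into a pair of clusters. One led by *Gzma*, *Prf1* and *Eomes* held 163 S3 and 89 D3 cells, and one led by *Xcl1* and *Cd160* held 202 and 60, so levels within the class mix clusters whose proportions differed. *Prf1*, *Gzma* and *Eomes* are markers of the gate, so their levels come from cells selected on them. *Prf1*, the pore-forming perforin, stood at 395.3 CPM in S3 and 735.3 CPM in D3, with a log2 ratio of 0.90 (0.76 to 1.03). *Gzma* stood at 3419 and 5738 CPM, with a log2 ratio of 0.75 (0.70 to 0.79), and *Ifng* at 446.3 and 758.7 CPM, with a log2 ratio of 0.77 (0.64 to 0.89). *Cxcr6*, a receptor of tissue-resident lymphocytes and ILC1, stood at 179.8 and 85.0 CPM, with a log2 ratio of -1.08 (-1.43 to -0.75). *Eomes*, a factor of mature NK cells, stood at 179.1 and 217.8 CPM, with a log2 ratio of 0.28 (0.05 to 0.51). Of 1040 genes with at least 500 UMIs here, 0.865% passed 2-fold in either direction, and of the 5 genes above *Cxcr6* alone did.

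In the B cell class, immunoglobulin genes differed by less than 2-fold. *Ighm*, a marker of the gate, stood at 3953 CPM in S3 and 3307 CPM in D3, with a log2 ratio of -0.26 (-0.35 to -0.17). *Ighd* stood at 765.5 and 683.2 CPM, with a log2 ratio of -0.16 (-0.37 to 0.03). Of 787 genes, 1.4% passed 2-fold. The lower ones were led by neutrophil genes, *S100a9* at 1487 and 164.0 CPM, and a cluster of 13 S3 cells with both B cell and neutrophil genes lay among the B cells of S3.

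Mature neutrophils made up 13.4% of S3 cells (503 cells) and 10.2% of D3 cells (470 cells), with a log2 ratio of -0.39 (-0.56 to -0.22). Granulocyte precursors, marked by primary granule genes, numbered 3 in S3 (0.0800%, 0.0165 to 0.234) and 22 in D3 (0.478%, 0.300 to 0.723), with a log2 ratio of 2.58 (0.84 to 4.32). Over all cells *Elane*, which encodes neutrophil elastase, stood at 4.71 CPM in S3 and 112.6 CPM in D3. It is a marker of the precursor gate, and 95.3% of its D3 UMIs lay in precursors. Its 5 leading cells held 61.6% of its UMIs in D3 and 67.7% in S3, so this level rests on few cells. The precursor class was mixed. *Elane* had a UMI in 1 of the 3 S3 cells and in 20 of the 22 D3 cells. *Mcpt8*, a protease of basophils, reached 10 or more UMIs in 1 S3 cell and in 2 D3 cells of the class, none of which had *Elane*.

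Within neutrophils, *Tnf*, the gene of tumor necrosis factor, stood at 65.7 CPM in S3 and 351.3 CPM in D3, with a log2 ratio of 2.42 (2.24 to 2.60). *Siglecf*, a sialic acid-binding lectin known from eosinophils, stood at 8.33 and 33.0 CPM, with a log2 ratio of 1.99 (1.47 to 2.54). *Csf3r* and *Camp* are markers of the gate, so their levels come from cells selected on them. *Csf3r*, the receptor of granulocyte colony-stimulating factor, stood at 995.5 and 498.5 CPM, with a log2 ratio of -0.998 (-1.07 to -0.93). *Camp*, a secondary granule peptide of immature cells, stood at 13076 and 21940 CPM, with a log2 ratio of 0.75 (0.73 to 0.76). *Il1b* stood at 3519 and 3540 CPM, with a log2 ratio of 0.01 (-0.02 to 0.04). Of 2312 genes with at least 500 UMIs in neutrophils, 5.49% passed 2-fold, 64 higher and 63 lower. A cluster led by *Cxcl3*, *Siglecf*, *Tnf* and *Cxcl2* held 1 S3 cell and 140 D3 cells. It stayed unnamed, and with clusters in place of gates the neutrophil share had a log2 ratio of -0.58 (-0.74 to -0.41). A cluster of 145 S3 and 190 D3 cells that was counted there as neutrophils also had *Ace*, *Treml4* and *Adgre4*, markers of Ly6C low monocytes, among its leading genes.

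Both monocyte classes took a larger share. Ly6C hi monocytes, which enter inflamed tissue, went from 7.47% (280 cells) to 9.98% (459 cells), with a log2 ratio of 0.42 (0.21 to 0.62). With the stricter gate that ratio was 0.06 (-0.16 to 0.29), and a difference was then within counting error. Ly6C low monocytes, which patrol vessel walls, went from 2.93% (110 cells) to 4.96% (228 cells), with a log2 ratio of 0.76 (0.43 to 1.08). Within Ly6C hi monocytes *Ly6c2*, a marker of the gate, stood at 1647 CPM in S3 and 867.2 CPM in D3, with a log2 ratio of -0.93 (-0.97 to -0.88). *Il1b*, which encodes the cytokine interleukin-1 beta, stood at 1333 and 4201 CPM, with a log2 ratio of 1.66 (1.62 to 1.70). *Vegfa*, which encodes the vascular growth factor VEGF-A, stood at 44.3 and 163.8 CPM, with a log2 ratio of 1.89 (1.67 to 2.10). *Arg1* had 1 UMI in S3 and 2328 UMIs in D3, with a log2 ratio of 10.49 (8.01 to 15.79). Of 3289 genes, 5.9% passed 2-fold, 144 higher and 50 lower. Deeper classes have more genes that reach 500 UMIs, so these percentages are not ranked between classes. In Ly6C low monocytes 1.71% of 997 genes passed, and *Treml4*, one of their markers, stood at 373.5 and 434.1 CPM.

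Dendritic cells present antigen to T cells and fell into 4 classes. Migratory dendritic cells, which carry *Ccr7*, went from 0.427% (16 cells) to 1.02% (47 cells), with a log2 ratio of 1.26 (0.44 to 2.07). Conventional type 2 dendritic cells (cDC2) were 3.36% and 3.69%, with a log2 ratio of 0.14 (-0.19 to 0.46). Conventional type 1 dendritic cells (cDC1), which cross-present antigen, were 1.25% and 1.72%, with a log2 ratio of 0.45 (-0.06 to 0.97). Plasmacytoid dendritic cells, a source of type I interferon, were 0.614% and 0.565%, with a log2 ratio of -0.12 (-0.93 to 0.69). The intervals of these last 3 ratios include 0. With clusters, cDC2 had a log2 ratio of 0.79 (0.53 to 1.04). Within cDC2, the chemokine gene *Ccl17*, a marker of the gate, stood at 166.6 CPM in S3 and 71.3 CPM in D3, with a log2 ratio of -1.22 (-1.48 to -0.97), and 2.6% of 1229 genes passed 2-fold.

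The larger macrophage share lay in cells marked by *Arg1*, *Gpnmb*, *Spp1*, *Fabp5* and other genes of the list for infiltrating macrophages. They numbered 13 in S3 (0.347%, 0.185 to 0.592) and 1380 in D3 (29.99%, 28.7 to 31.3), with a log2 ratio of 6.43 (5.65 to 7.22). This list consists of genes that macrophages turn on, so the count is of cells that carry them and not of cells of known origin. Whether resident cells that turned on these genes were counted here was not tested. They had a median of 23187.5 UMIs in D3 and held 43.6% of all UMIs of that library. Microglia went from 12.2% (459 cells) to 13.8% (634 cells), with a log2 ratio of 0.17 (0.01 to 0.33). Their log2 ratio was 0.09 (-0.07 to 0.26) with thinned cells and 0.16 (-0.01 to 0.32) with the stricter gate. Without any filter on cells it was 0.50 (0.35 to 0.64). Border macrophages, which line vessels and meninges, went from 11.1% (416 cells) to 12.3% (568 cells), with a log2 ratio of 0.15 (-0.02 to 0.33). With clusters, border macrophages had a log2 ratio of -0.27 (-0.46 to -0.09), and with thinned cells 0.37 (0.22 to 0.53), so their direction depended on the definition. As parts of the macrophage class, microglia went from 51.7% to 24.6%, border macrophages from 46.8% to 22.0% and infiltrating macrophages from 1.46% to 53.4%. The clusters that held most of the macrophages also differed. In S3 the largest was the resting microglia cluster, with 363 cells, and in D3 it was a cluster led by *Gpnmb*, *Fabp5* and *Arg1*, with 909 cells and 1 S3 cell.

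Microglia were spread over clusters in different proportions in each group. A cluster led by *P2ry12* and *Tmem119* held 363 S3 and 330 D3 cells, and one led by *Lpl*, *Il1a* and *Gpr84* held 104 and 345, so levels within the class mix clusters. *P2ry12*, *Siglech* and *Cx3cr1* are markers of the gate, so their levels come from cells selected on them. *P2ry12* stood at 1706 CPM in S3 and 840.1 CPM in D3, with a log2 ratio of -1.02 (-1.06 to -0.98). *Siglech* stood at 960.2 and 487.4 CPM, with a log2 ratio of -0.98 (-1.03 to -0.92), and *Cx3cr1*, the receptor for the neuronal ligand fractalkine, at 2550 and 1447 CPM, with a log2 ratio of -0.82 (-0.85 to -0.78). *Spp1*, which encodes osteopontin, stood at 89.8 and 1044 CPM, with a log2 ratio of 3.54 (3.41 to 3.67). *Mki67*, a gene of cycling cells, stood at 5.46 and 46.6 CPM, with a log2 ratio of 3.09 (2.57 to 3.67). *Ccl3* stood at 2750 and 2873 CPM, with a log2 ratio of 0.06 (0.04 to 0.09). Of 4253 genes, 3.32% passed 2-fold. In border macrophages 2.23% of 3678 genes passed. Their *Fn1*, which encodes fibronectin and is a marker of the Ly6C hi monocyte gate, stood at 20.5 and 300.0 CPM, with a log2 ratio of 3.87 (3.605 to 4.15). *Arg1*, a marker of the infiltrating macrophage gate, had a UMI in 1.20% of them in S3 and 24.8% in D3. Whether resident cells carried these genes or other cells fell into the class was not tested. Their *Mrc1*, a marker of the gate that encodes the mannose receptor CD206, stood at 1169 and 761.1 CPM, with a log2 ratio of -0.62 (-0.67 to -0.57).

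**Figure D4:**
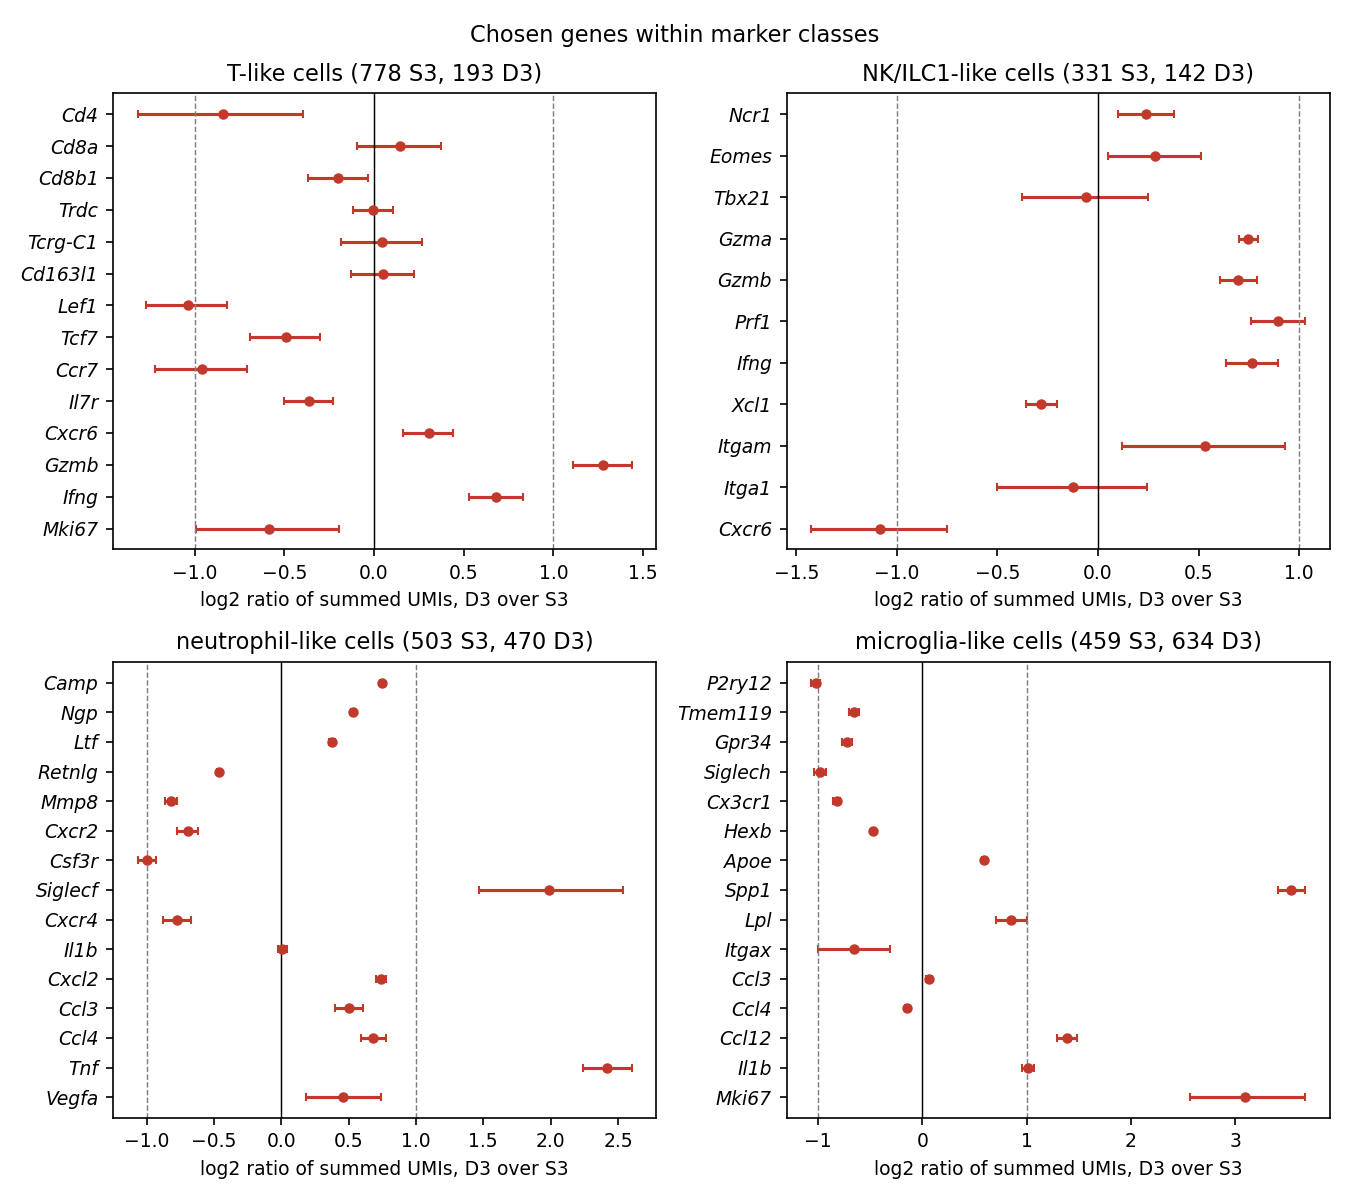
Log2 ratio of summed UMIs, D3 over S3, for genes chosen after the shares were known, within T, NK/ILC1, neutrophil and microglia cells. Points carry exact 95% intervals for counting error and dashed lines mark 2-fold. *Lef1* lies at -1.04 in T cells and *Tnf* at 2.42 in neutrophils, and *P2ry12* lies at -1.02 and *Mki67* at 3.09 in microglia.

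In droplet data, RNA free in the suspension enters every cell, and the genes seen in cells that should lack them differed between the libraries. *Spp1*, a gene of macrophages, had a UMI in 2.06% of S3 T cells (1.18 to 3.32) and in 49.2% of D3 T cells (42.0 to 56.5), whose median depths were 7065.5 and 5929 UMIs. *Apoe*, which encodes a lipid carrier of macrophages, had one in 62.9% and 96.4%, and *Arg1* in 0.771% and 7.77%. In T cells *Spp1* stood at 4.17 CPM in S3 and 134.9 CPM in D3 and *Arg1* at 0.927 and 11.4 CPM. The level of *Spp1* within D3 neutrophils (238.8 CPM) and Ly6C hi monocytes (252.5 CPM) was below 2 times that in T cells and is not read as theirs. Its level in microglia, given above, was above that range. The *Arg1* level of Ly6C hi monocytes, 306.5 CPM, was likewise far above that of T cells.

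Summed over all cells, more genes were lower than higher. Of 12204 genes with at least 100 UMIs in both libraries together, 473 (3.88%) were 2-fold or more higher in D3 and 1426 (11.7%) were 2-fold or more lower. The median log2 ratio was -0.21. With ratios centred on that median, 705 were higher and 1040 lower, so the higher ones were 40.4% of all calls in place of 24.9%. To separate the mix of classes from levels within them, the levels of each D3 class were also summed at the share of UMIs that class had in S3. At this equal mix, 138 genes (1.13%) were 2-fold or more higher and 304 (2.49%) lower. Of the genes higher over all cells, 25.4% were also higher at equal mix, and of those lower, 18.3% were also lower. The median absolute log2 ratio went from 0.40 to 0.21.

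The 10 genes with the highest ratios were led by macrophage genes. *Arg1* (chromosome 10, 24915221-24927484 in GRCm38, the mm10 build), the arginase of alternatively activated macrophages, went from 4.29 CPM (3.67 to 4.98) to 910.6 CPM (903.9 to 917.4), with a log2 ratio of 7.73 (7.52 to 7.96). In S3, 59.9% of its UMIs lay in ILC2, and in D3, 93.6% lay in infiltrating macrophages. *Spp1* (chromosome 5, 104435118-104441050) went from 40.6 CPM to 3484 CPM, with a log2 ratio of 6.42 (6.35 to 6.496). *Gpnmb* (chromosome 6, 49036546-49070929), a glycoprotein of lysosome-rich phagocytes, went from 9.89 CPM to 671.3 CPM, with a log2 ratio of 6.08 (5.94 to 6.23). *F7*, which encodes coagulation factor VII, went from 0.299 to 34.5 CPM and the acute phase gene *Saa3* from 0.997 to 82.0 CPM. *Gdf3*, *Cd5l*, *Cdo1* and *Mgarp* had log2 ratios between 4.96 and 7.34 and 5 to 14 UMIs in S3. *Htr2b*, a serotonin receptor gene (chromosome 1, 86099026-86111970), had no UMI counted in the kept S3 cells and 1205 UMIs in 497 D3 cells, so no ratio is given. A gene with a UMI in fewer than 3 cells of a library is not listed there. All 10 had most of their D3 UMIs, between 69.1% and 96.9%, in infiltrating macrophages. *Arg1*, *Spp1* and *Gpnmb* are markers of that gate, so for them this location is in part built in.

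The 10 genes with the lowest ratios were genes of B cells, plasma cells and rare cells. *Pax5*, the factor that fixes B cell identity, went from 26.2 CPM to 1.27 CPM, with a log2 ratio of -4.36 (-4.68 to -4.06). *Ms4a1*, which encodes CD20, went from 85.9 to 5.03 CPM, with a log2 ratio of -4.09 (-4.25 to -3.94). *Fcer2a* and *Cr2*, surface receptors of mature B cells, had log2 ratios of -4.22 and -4.06. Another 5 rested on few S3 cells. *Igha*, the heavy chain of immunoglobulin A, had 11383 UMIs in S3 and 26 in D3, and 5 S3 cells held 95.9% of the S3 UMIs. *Iglc2* had 61.1% of its S3 UMIs in 1 cell. *Mcpt4* and *Tpsb2*, mast cell proteases, had 92.2% and 93.3% in 1 S3 cell and had no UMI counted in the kept D3 cells. *Dcn*, a fibroblast gene, had 207 UMIs in 15 S3 cells.

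**Figure D5:**
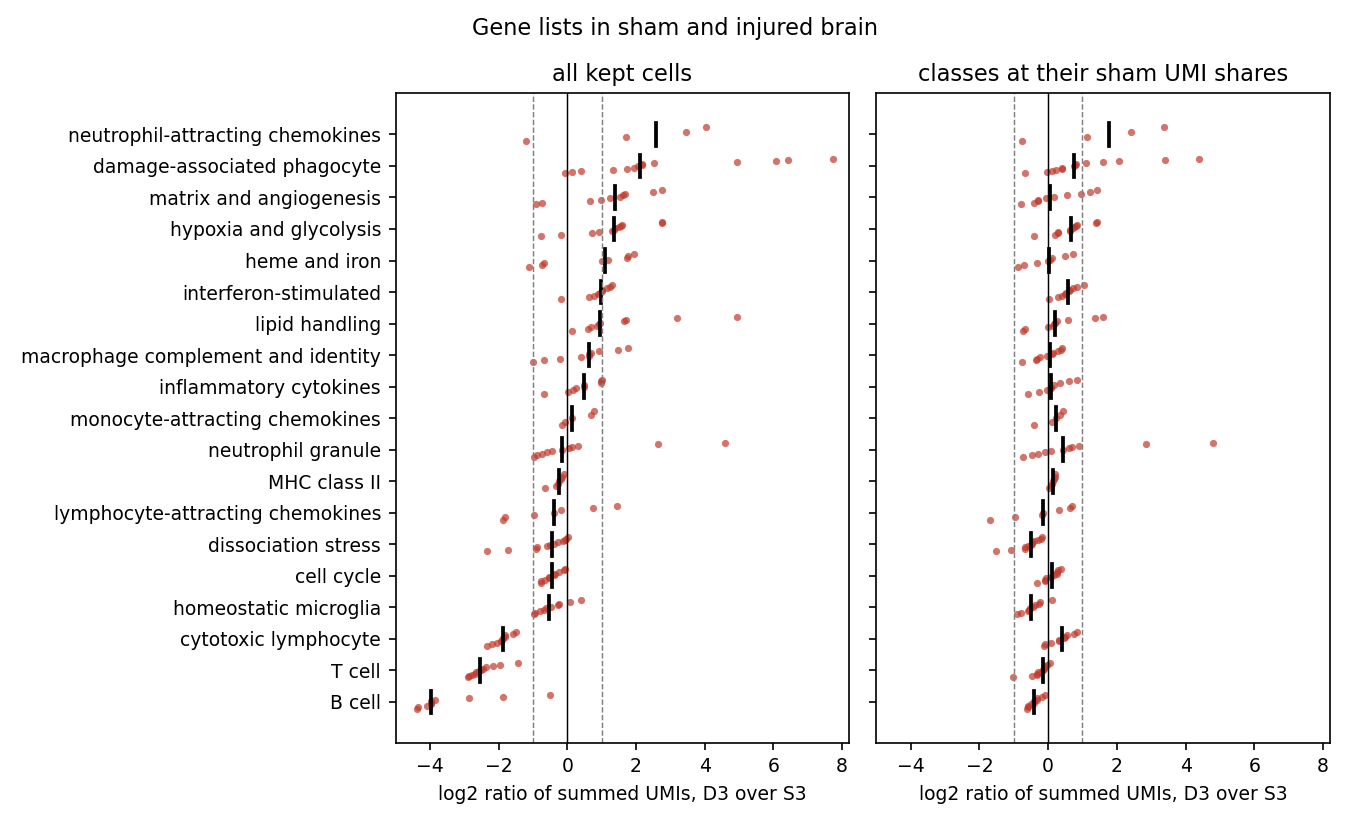
Log2 ratio of summed UMIs, D3 over S3, for every tested member of 19 gene lists, over all kept cells (left) and with each class at its S3 share of UMIs (right). Points are genes, black bars are list medians and dashed lines mark 2-fold. The median of the T cell list lies at -2.54 on the left and -0.16 on the right.

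Most genes of the T cell, B cell and cytotoxic lists are gate markers, such as *Cd3e*, *Cd79a* and *Ncr1*. Lower sums beside lower shares are therefore in part built in. All 12 genes of the T cell list were 2-fold or more lower in D3, with a median log2 ratio of -2.54, against 11.7% of all genes. *Cd3e* (chromosome 9, 44998740-45009627) went from 94.3 to 12.8 CPM, with a log2 ratio of -2.88 (-2.98 to -2.78), *Trbc1* from 209.1 to 29.0 CPM and *Trbc2* from 306.3 to 44.4 CPM. At equal mix the median was -0.16 and 1 gene, *Cd4*, was 2-fold or more lower. Of the 10 B cell genes, 9 were 2-fold or more lower, with a median of -3.96, and the tenth, *Cd22*, had a log2 ratio of -0.49. At equal mix their median was -0.41 and none passed 2-fold. All 10 cytotoxic genes were 2-fold or more lower, with a median of -1.88, and at equal mix the median was 0.40 with none past 2-fold. *Ifng* went from 82.3 to 19.8 CPM over all cells, with a log2 ratio of -2.05, and had 0.49 at equal mix. *Nkg7*, a granule membrane protein, went from 310.7 to 81.9 CPM, with a log2 ratio of -1.92, and had 0.33 at equal mix.

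Genes of phagocytes that take up debris were higher. Of 14 tested genes of the damage-associated list, 11 were 2-fold or more higher and none lower, with a median log2 ratio of 2.11, against 3.88% of all genes. Besides the 3 leading genes above, *Fabp5*, a fatty acid-binding protein, went from 51.7 to 1588 CPM, with a log2 ratio of 4.94 (4.88 to 5.004). *Ctsb* and *Ctsd*, lysosomal proteases, went from 1002 to 5723 CPM and from 1659 to 7431 CPM. *Lpl* and *Itgax* had log2 ratios of 0.14 and -0.08. Of this list, *Arg1*, *Gpnmb*, *Spp1*, *Trem2*, *Fabp5*, *Lgals3* and *Ctsl* are also markers of the infiltrating macrophage gate. Higher sums beside the larger share of that class are therefore in part built in. At equal mix the median of the list was 0.76 and 5 genes passed 2-fold higher. Of 10 genes of lipid handling, 4 were 2-fold or more higher, with a median of 0.94. *Plin2*, which coats lipid droplets, went from 117.4 to 1081 CPM, with a log2 ratio of 3.20, and *Lipa*, the lysosomal lipase, from 69.4 to 226.6 CPM, with a log2 ratio of 1.71. At equal mix 2 of the 10 passed.

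Of 8 genes of heme and iron, 5 were 2-fold or more higher and 1 was lower, with a median of 1.11, against 3.88% of all genes higher and 11.7% lower. *Hmox1*, the enzyme that breaks down heme, went from 235.6 to 784.6 CPM, with a log2 ratio of 1.74, and had 0.01 at equal mix. The ferritin genes *Ftl1* and *Fth1* went from 4046 to 15690 CPM and from 4946 to 16730 CPM, and had log2 ratios of 0.50 and 0.72 at equal mix. Of 12 genes of hypoxia and glycolysis, 8 were 2-fold or more higher and none lower, with a median of 1.37. *Bnip3*, a gene induced by low oxygen, went from 13.3 to 90.4 CPM, with a log2 ratio of 2.77 (2.64 to 2.90). *Vegfa* went from 21.1 to 141.8 CPM, with a log2 ratio of 2.75 (2.65 to 2.85). In D3, 81.2% of the *Vegfa* UMIs lay in macrophages, and at equal mix both genes still passed 2-fold, with 1.39 and 1.43. Of 10 tested genes of matrix and angiogenesis, 6 were 2-fold or more higher and none lower. *Mmp14*, a membrane-bound matrix protease, went from 8.85 to 49.7 CPM, with a log2 ratio of 2.49. *Mmp12* had 1.68 over all cells and -0.42 at equal mix. *Mmp12*, *Thbs1*, *Fn1* and *Mmp9* of this list are gate markers.

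Of the 4 tested genes of the neutrophil-attracting list, the 3 ligands were 2-fold or more higher, against 3.88% of all genes. *Cxcl3* went from 3.09 to 50.8 CPM, with a log2 ratio of 4.04 (3.78 to 4.31), *Cxcl1* from 8.22 to 90.7 CPM, with a log2 ratio of 3.46 (3.30 to 3.63), and *Cxcl2* from 549.3 to 1782 CPM, with a log2 ratio of 1.70 (1.68 to 1.72). All 3 also passed at equal mix. Their receptor *Cxcr2*, a gene of neutrophils, went from 101.6 to 43.9 CPM, with a log2 ratio of -1.21 (-1.28 to -1.14). None of the 5 monocyte-attracting ligands passed 2-fold, and *Ccl2* went from 184.6 to 315.9 CPM, with a log2 ratio of 0.78. Of the 7 lymphocyte-attracting ligands, *Cxcl16* was higher with 1.46, *Ccl5* and *Ccl22* were lower with -1.82 and -1.86, and *Cxcl10* had 0.74. Of the *Ccl5* UMIs, 83.1% in S3 and 59.6% in D3 lay in lymphoid cells, and at equal mix its log2 ratio was 0.32. That of *Ccl22* was -1.68 at equal mix.

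Of 10 interferon-stimulated genes, 5 were 2-fold or more higher and none lower, with a median of 0.98, against 3.88% and 11.7% of all genes. *Rsad2* went from 32.7 to 80.0 CPM, with a log2 ratio of 1.29 (1.20 to 1.38), and in D3 72.6% of its UMIs lay in macrophages. At equal mix 1 of the 10, *Ifit1*, passed. None of the 9 inflammatory cytokine genes passed 2-fold, and *Il1b* had 0.98 (0.96 to 0.99). None of the 7 genes of MHC class II, which present antigen to helper T cells, passed, with ratios between -0.63 and -0.09. None of the 10 homeostatic microglia genes passed over all cells, with a median of -0.54, and *P2ry12* (chromosome 3, 59216272-59262871) had -0.93. Of the 10 genes of macrophage complement and identity, 2 passed, among them *Cd68* with 1.76. Of the 11 neutrophil granule genes, the primary granule genes *Elane* and *Mpo*, both markers of the precursor gate, passed, with 4.58 and 2.64. The median was -0.14. None of the 10 cell cycle genes passed, with a median of -0.45.

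Of 12 genes induced when tissue is dissociated, none was 2-fold or more higher and 2 were lower, against 3.88% and 11.7% of all genes. The median log2 ratio of this list was -0.43, and -0.49 at equal mix. *Jun* and *Egr1* had log2 ratios of -0.90 and -0.88, whereas *Fos* and *Dusp1* had 0.03 and -0.08. At equal mix *Fos* and *Dusp1* had -0.43 and -0.51. *Hspa1b* (chromosome 17, 34956436-34959238), a heat shock chaperone, went from 1100 to 218.1 CPM, with a log2 ratio of -2.33 (-2.36 to -2.31), and the near-identical *Hspa1a* from 2217 to 668.6 CPM, with a log2 ratio of -1.73. Reads of such close copies can be split between them by the counting. *Hspa1b* was lower by more than 2-fold in each of the 5 broad classes, from -1.27 in neutrophils to -3.19 in macrophages. Of 5768 genes with at least 100 UMIs in each class, it was the only one lower by 2-fold or more in all 5, and 4 were higher in all 5, *Ifitm1*, *Ecm1*, *Gpnmb* and *Spp1*. As RNA free in the suspension carries *Spp1*, its ratios in lymphoid cells, neutrophils and monocytes, 4.34, 2.49 and 3.57, are not read as those cells' own. Its level in dendritic cells, where the ratio was 2.45, was not compared with that in T cells. For the other 3 genes the part of free RNA was not tested. *Hspa1b* was also lower in the dura mater, with a log2 ratio of -1.18. The part of handling in these differences was not tested.

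The dura mater, the outer membrane over the brain, was sorted as separate libraries and gated with the same lists, with 3569 cells in S3 and 2668 in D3. Lymphoid cells were 32.2% and 19.9% there, with a log2 ratio of -0.70 (-0.83 to -0.57), and macrophages were 17.1% and 33.5%, with a log2 ratio of 0.97 (0.84 to 1.10). The intervals of the lymphoid ratio in brain and dura mater did not overlap, and the brain had the lower one. Neutrophils had a log2 ratio of -0.37 (-0.51 to -0.23) in the dura mater and -0.34 in the brain. With 1 library of each kind, a difference between the tissues could not be tested.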

How the data were processed

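CD45+ cells of S3 and D3 brain were analysed, with dura mater for comparison. The authors mapped reads of the Chromium Single cell 3′ v3 kit with Cell Ranger 3.1.0 to mm10 and used Seurat 3.1.0. The deposited values are natural log (ln) values, of 1 plus 10000 times a gene's share of the UMIs of its cell. Whole UMIs were recovered in all cells, with the smallest value taken as 1 UMI, although raw counts had been assumed. Genes seen in under 3 cells of a library are not listed. Columns without a sample numbered 0.

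Marker scores are means of ln levels divided by the 0.9 quantile of positive cells. Shares carry exact binomial intervals, CPM exact Poisson intervals and ratios 95% intervals, all for counting error only. Members and lists were chosen with earlier results of these data known. Named genes were the 10 highest and lowest with at least 200 UMIs, up to 4 per list by absolute ratio and the first 3 markers per class. Scrublet marked 3 and 2 barcodes by its automatic threshold, under 0.5%, and so did not work, so doublets stayed in and were removed in an alternative by the highest scores, at 0.8% per 1000 barcodes. Clusters used scanpy 1.11.5 with 2500 variable genes, 30 components and 20 neighbours. Gene positions are from GENCODE vM21. Ratios, intervals and gates were tested on simulated data. Some genes are not reported here.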

Additional observations from a re-analysis of the deposited data

Results flagged for a closer look

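The dendritic share moved in opposite directions in brain and dura mater. The log2 ratio of D3 over S3 was 0.31 (0.06 to 0.55) in the brain and -0.11 (-0.35 to 0.14) in the dura mater. The difference was not tested, since each tissue has 1 library per group, and the interval of the dura mater includes 0.

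Cells removed for 6000 or more genes stand outside the comparisons of the report and were mostly macrophages in D3. They numbered 98 in S3 and 511 in D3. By the same gates, 86.5% (83.2 to 89.3) of the removed D3 cells were macrophages, against 59.2% (48.8 to 69.0) of the removed S3 cells. Lymphoid cells were 0.196% and 3.06% of the removed cells. Without any filter on cells the macrophage share was 22.2% in S3 and 55.8% in D3.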

How the results depend on the processing

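With 1 library a group, no replicate could be left out. No paired analysis was possible because the groups compared share fewer than 2 replicate numbers. *Mcpt4*, *Tpsb2* and *Htr2b* gave no ratio at equal mix, since no UMI of them was counted in the kept cells of 1 library. The direction of the lymphoid, monocyte, dendritic and macrophage shares was the same under all 6 alternatives, or all 5 for macrophages. Counting only cells outside the macrophage class gave log2 ratios of -1.48 for lymphoid cells, 1.32 for monocytes, 1.11 for dendritic cells and 0.46 for neutrophils (0.40 for mature neutrophils), the last being reversed. Clusters gave -0.58 for neutrophils, 0.83 for dendritic cells and 1.12 for macrophages. The stricter gate gave -0.55 for neutrophils and 0.30 for monocytes.

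Genes 2-fold or more lower numbered 2495 with a minimum of 20 UMIs, 701 with a minimum of 500 UMIs, 567 in cells thinned to 2000 UMIs, with fewer genes tested, 304 with classes at their sham share of UMIs and 809 without macrophages. Those higher numbered 138 at equal mix and 298 without macrophages. At equal mix *Ccl5* (0.32), *Ifng* (0.49), *Nkg7* (0.33), *Ncr1* (0.0718), *Klrb1c* (0.0188), *Ccr9* (0.0199), *Cpa3* (0.79), *Mmp12* (-0.42) and *Pf4* (-0.0395) changed sign. *Cpa3* is a marker of mast cells, which lie in the pool of small classes. Without macrophages *Mmp12* (-0.29) and *Clec9a* (0.13) did, and *Prss34* did in thinned cells (0.88) and with every cell weighing the same (0.94). Removing doublets or the filter on cells reversed none of the results. The cause of the other shifts was not tested. Depth limits the classes under 50 cells, whose intervals are wide.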

Other observations

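Basophil genes rested on very few cells. *Mcpt8*, a protease of basophils, went from 55.6 CPM in S3 to 12.7 CPM in D3, a log2 ratio of -2.13 (-2.24 to -2.02). One S3 cell held 99.0% of its 2231 UMIs, and 5 D3 cells held 99.4% of 977 UMIs. *Prss34*, another basophil protease, had 98.7% of its S3 UMIs in 1 cell. Cells gated as granulocyte precursors held 99.0% of the *Mcpt8* UMIs in S3 and 99.3% in D3. No cell passed the basophil gate, 0 of 3748 cells in S3 and 0 of 4601 in D3, which allows shares of up to 0.0800% and 0.0652% of gated cells.

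Some genes that are no marker of a class differed in more than 1 class. *Hist1h2ap*, a histone gene, had log2 ratios of -3.30 in T cells and -2.86 in Ly6C hi monocytes. *Ifitm1*, an interferon-induced membrane protein, was higher in every broad class, from 1.04 in neutrophils to 4.60 in dendritic cells, and had 1.83 in the dura mater.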
